A study of Sus scrofa with 19 samples.

Results

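The comparison set uterine horns infused with prostaglandin E2 (PGE2) and estradiol (E2) against the uteri of gilts, young female pigs, that were given neither hormone. Its samples, chosen by their titles, were the arrays of 6 hormone horns, each from a different treated gilt, and the 8 arrays of 4 control gilts, a pair of horns from each, or 14 of the 19 arrays of the series. The labels number the gilts as separate animals. All were crossbred, 8 months old and cycling, and in all of them both horns had been cannulated by surgery on days 8 to 9 of the oestrous cycle. A hormone horn was given 200 µg of PGE2 and 33.3 µg of E2 at each infusion, and a horn of a control gilt was given only the vehicle, 5 mL of saline with 1% ethanol. Infusions went on over 24 h with 4 h between them, from day 11 to day 12 after oestrus began. Surgery, cannulae and repeated fluid infusion were therefore common to both groups. The opposite horn of each treated gilt, called its placebo horn here, had vehicle, and 5 of these horns were used only to set the horns of a gilt against each other. The titles carry a mark, L or P, that the labels do not explain: 5 of the 6 hormone horns had the mark P, and that of gilt 40, whose placebo horn is on no array used here, had the mark L.

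In the pig, elongating conceptuses release estrogens, and the endometrium, the mucosal lining of the uterus, answers with secretions that nourish them, a remodelled surface epithelium and more blood flow. Estradiol acts through nuclear receptors that control transcription, chiefly ESR1. PGE2 is a lipid made from arachidonic acid that acts through G protein-coupled receptors of the cell surface, some of which raise the second messenger cAMP.

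Signals were log2 values relative to the 75th percentile of each array, so that 0 is the brightness of that percentile and a difference of 1 is a doubling. Between 79.1% and 88.4% of spots per array were well above background, and no array had saturated spots (0). The tissue label was checked against marker genes. EPCAM, an adhesion protein of epithelium, was bright in every gilt (4.67 to 5.00 in control gilts), and so was ACP5, which encodes the uterine secretory protein uteroferrin (8.24 to 8.35). The mean of 11 measured epithelial markers was 2.94 to 3.22 in hormone horns and 2.34 to 2.65 in control gilts, and the mean of 11 endothelial markers was 0.24 to 1.02 against -0.42 to 0.059, without overlap in either case. The means of neutrophil and of macrophage and dendritic cell markers, given below, did not overlap between the groups either. The hormone horn of gilt 47 stood apart in immune markers. The mean of 17 macrophage and dendritic cell markers was 1.48 in it, against -0.76 to 0.14 in the other hormone horns and -1.36 to -0.78 in control gilts. For 17 T and natural killer cell markers these values were -0.56, -2.93 to -2.17 and -3.06 to -2.57, and for 4 B and plasma cell markers -0.76, -3.91 to -3.05 and -3.92 to -3.67. The placebo horn of gilt 47 was high as well. Relative to the control mean, the median of the macrophage and dendritic cell markers was 2.62 in it and 2.34 in the hormone horn. For T and natural killer cell markers both horns were at 2.37, and for B and plasma cell markers they were at 3.08 and 2.95. In whole tissue, fewer cells of a type and less RNA per cell cannot be told apart. The part that these shifts in marker levels had in the results below was not tested.

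**Figure D1:**
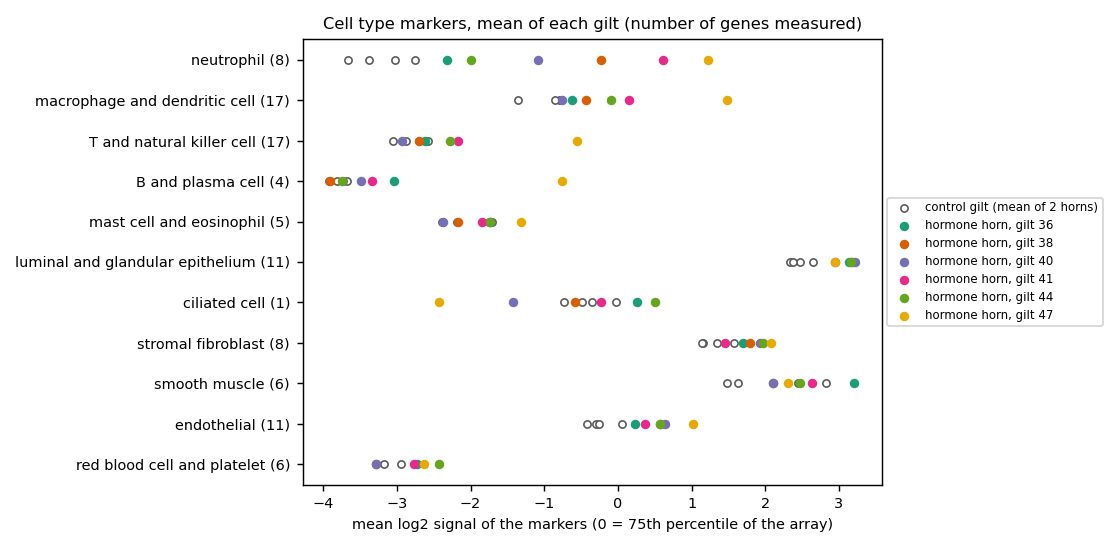
Mean log2 signal of the measured marker genes of each cell type (x axis, 0 is the 75th percentile of the array) for 6 hormone horns (colours) and 4 control gilts (open circles), with the number of genes in brackets. Epithelial, endothelial, neutrophil and macrophage markers lay higher in all 6 hormone horns than in any control gilt, for macrophage markers narrowly (-0.76 against -0.78). Gilt 47 was the highest hormone horn for neutrophil, macrophage, T cell and B cell markers.

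The value of each gilt entered the test once, with the horns of a control gilt averaged. Of 39095 probes tested, 1440 (3.68%) were higher and 1053 (2.69%) were lower in hormone horns (limma, Benjamini-Hochberg adjusted p under 0.05, two-sided), and the median size of a called difference was 0.961 log2 units. Of the 3010 genes that could be given a symbol, 224 (7.44%) were called higher and 35 (1.16%) lower, and for 414 (13.8%) the 6 hormone horns and the 4 control gilts did not overlap. Of the 259 called genes 234 were among these 414. Genes with a symbol all come from probes that the array identifies by a RefSeq accession. Of those RefSeq probes 635 were higher and 94 lower, with a median difference of 0.20, whereas 128 of the probes designed on assembled contigs were higher and 504 lower, with a median of -0.098. The difference between the medians of these 2 probe classes was 2.16 to 2.50 in hormone horns and 1.92 to 2.07 in control gilts. Rises among named genes are therefore read against 7.44% and against their median of 0.17, and with that class difference as a term, a measure that itself separates the groups, 0 probes passed (limma; 1534 at an unadjusted p under 0.05).

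The number of calls rested on single gilts. Without control gilt 9, 14 or 28 it fell to 173, 114 and 169 probes higher and to 155, 91 and 114 lower (limma), and without the hormone horn of gilt 44 to 650 higher and 461 lower. Without the hormone horn of gilt 36 it rose to 2017 higher and 1751 lower. Each fit leaves out 1 gilt, so that 3 control gilts remain when a control gilt is omitted. Of the 259 called genes 32, 26 and 31 stayed called without control gilts 9, 14 and 28. Without control gilt 46 the number was 143, and without the hormone horns of gilts 36, 38, 40, 41, 44 and 47 it was 252, 218, 175, 206, 111 and 181. In all 10 fits that leave out a gilt, 17 genes were called higher and 7 lower. Where a gene named below was among them, it is said to pass whichever gilt was left out. In a further fit the 14 arrays entered singly with gilt as a replicate block, which gave 1784 probes higher and 1410 lower. Its values are given below where it changed the call of a named gene or moved the count of a list by over 1.5 times.

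**Figure D2:**
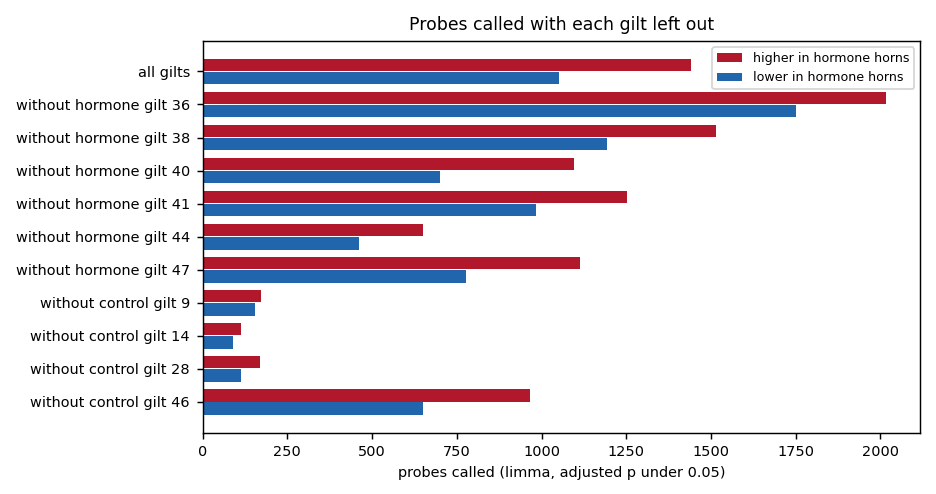
Number of probes called higher (red) or lower (blue) in hormone horns (x axis) with all gilts and with each gilt left out in turn. The shortest bars, 91 to 173 probes, are those without control gilt 9, 14 or 28.

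The largest rises were those of genes known from inflamed or secreting mucosa. S100A8, a subunit of the calcium-binding protein calprotectin of neutrophils and stressed epithelium, had a signal of -4.74, -3.05, -4.55 and -3.47 in control gilts 9, 14, 28 and 46. In hormone horns its lowest, median and highest values were -1.54, 3.62 and 4.85. All 6 hormone horns lay above the 4 control gilts, but gilts 36 and 44 (-0.35 and -1.54) were far below the other 4, which lay at 3.11 to 4.85. The difference was 6.41 ± 1.21 log2 units (± SE, n = 6 and 4; limma adjusted p = 0.0166), or 85.1-fold. Its partner S100A9 rose by 5.65 and S100A12, a related calgranulin, by 4.79, with the same pair of gilts lowest. SAA3, an acute phase protein made locally in mucosa, spanned 1.37 to 8.59 in hormone horns, highest in gilt 47, against -1.67 to 0.28 in control gilts, and rose by 5.33 ± 1.07 (limma adjusted p = 0.0209). CHI3L1, a chitinase-like glycoprotein of activated macrophages and other cells, rose by 4.14 and was also highest in gilt 47 (5.07, next 2.04). None of these 5 genes passed in every fit that left out a gilt: without control gilt 9, 14 or 28 each of them missed the threshold, with adjusted p of up to 0.0675 for S100A8, 0.076 for S100A9, 0.101 for S100A12, 0.0764 for SAA3 and 0.106 for CHI3L1. Further calls were lost without gilt 40 or 46 for S100A12 and without gilt 40, 41 or 44 for CHI3L1.

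Other markers of neutrophils were not called. Of the 18 listed neutrophil markers 8 were measured, and the 3 calgranulins were the ones called. Of the 8 differences 7 were above 0, and their median of 2.00 was the highest of all lists, the cell type markers included. The mean of the 8 was -2.32 to 1.22 in hormone horns and -3.67 to -2.76 in control gilts, so that the groups did not overlap. Taken singly, only the 3 calgranulins were without overlap, as were 13.8% of all named genes. The median of the 8 relative to the control mean did overlap. It was 0.17 in gilt 36 and 0.49 in gilt 40, against up to 0.55 in control gilts. TREM1, a receptor of myeloid cells, was well above background on 4 of 6 hormone arrays and 1 of 8 control arrays, so that its difference has no firm size, and it was not called (limma adjusted p = 0.169). The arginase ARG1 was at 0.92 (adjusted p = 0.56). PGLYRP1, a granule protein that binds bacterial cell walls, was at -1.39 (adjusted p = 0.232). Their part in the calgranulin signal was not tested.

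**Figure D3:**
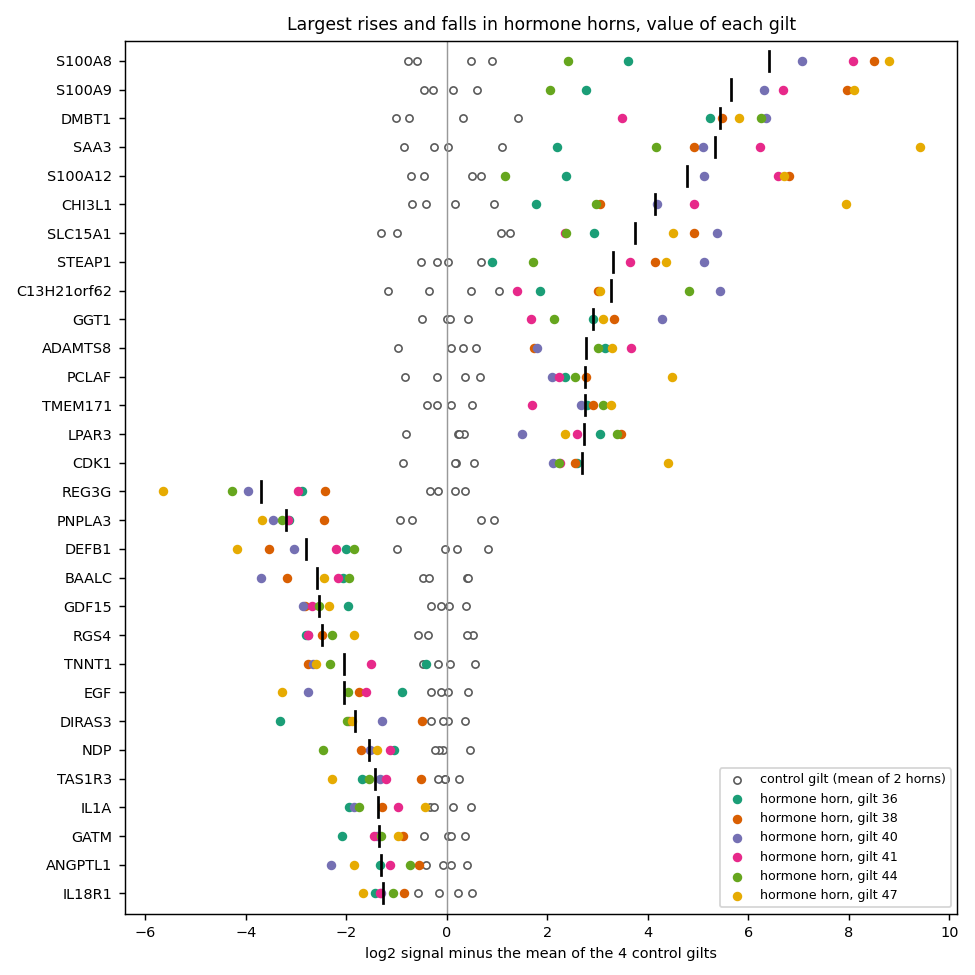
Log2 signal minus the mean of the 4 control gilts (x axis) for the 15 largest rises and 15 largest falls among called genes. Coloured points are the 6 hormone horns, open circles the 4 control gilts and the black bar the mean of the hormone horns. The spread among hormone horns is widest for S100A8, S100A9, SAA3 and CHI3L1, while GDF15 and RGS4 hold all 6 hormone horns in a narrow range below the control gilts.

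Several large rises passed with any gilt left out. DMBT1, a secreted glycoprotein that binds bacteria at mucosal surfaces, had -5.22, -3.89, -4.96 and -2.79 in the 4 control gilts and -0.73, 1.43 and 2.14 as lowest, median and highest value in hormone horns. The gap between the highest control gilt and the lowest hormone horn was wider than the range of the hormone horns outside gilt 41, which was lowest. The rise was 5.43 ± 0.59 log2 units (43.2-fold, limma adjusted p = 0.00523). LPAR3, a receptor for lysophosphatidic acid known to respond to estrogen in the pig uterus, had -4.91, -3.87, -3.76 and -3.85 in control gilts and -2.60, -1.27 and -0.64 in hormone horns, a rise of 2.72 ± 0.38 (adjusted p = 0.00853). TMEM171, a membrane protein of little known function, rose by 2.74 ± 0.29 with 5 of 6 hormone horns between -0.31 and 0.28 and gilt 41 at -1.29. GGT1, the surface enzyme that splits glutathione, rose by 2.91 and the secreted metalloprotease ADAMTS8 by 2.77. HSD11B1, which regenerates active glucocorticoid, rose by 1.48 ± 0.16, with hormone horns at 2.60 to 3.39 and control gilts at 1.41 to 1.80. CEBPB, a transcription factor induced by cAMP and by inflammatory signals, rose by 1.78 ± 0.24 (adjusted p = 0.00789). Each of these 7 genes passed whichever gilt was left out, as did SUSD2 (2.40), EMID1 (1.96) and GNMT, an enzyme of methyl group metabolism (1.97), which were named after their values had been seen.

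SLC15A1, an intestinal type transporter of small peptides, rose by 3.74 ± 0.74 and STEAP1, a membrane protein of the metalloreductase family, by 3.31 ± 0.73 (limma adjusted p = 0.0196 and 0.0277). SLC15A1 was well above background on 7 of the 8 control arrays. Its control gilts split into gilts 9 and 28 (-5.93 and -5.62) and gilts 14 and 46 (-3.37 and -3.54). C13H21orf62, an uncharacterised gene whose probe was well above background on 6 of 8 control arrays, rose by 3.26 ± 0.77, with gilts 40 and 44 (0.23 and -0.39) above the other hormone horns. None of the 3 passed without control gilt 9, 14 or 28 (adjusted p up to 0.0758, 0.0925 and 0.117). In addition, the threshold was missed without gilt 46 for STEAP1 and without gilt 44 or 46 for C13H21orf62.

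Falls were fewer among named genes. GDF15, a stress-induced hormone of the TGF-beta superfamily, had the smallest adjusted p of all named genes. It lay at -1.41, -1.06, -1.23 and -0.71 in the control gilts and at -3.97, -3.72 and -3.07 (lowest, median, highest) in hormone horns, a difference of -2.54 ± 0.21 log2 units (5.81-fold lower; limma adjusted p = 0.0018). RGS4, which shortens signalling of G protein-coupled receptors, lay at 0.55, -0.55, -0.35 and 0.42 in control gilts and at -2.78 to -1.82 in hormone horns, a difference of -2.49 ± 0.26 (adjusted p = 0.00523). REG3G, a lectin that kills Gram-positive bacteria, had control values within a narrow range (0.64, 0.14, 0.83 and 0.29) and hormone values of -5.18, -2.98 and -1.95, lowest in gilt 47, a difference of -3.69 ± 0.53 (adjusted p = 0.00896). PNPLA3, a lipase of lipid droplets, differed by -3.19 ± 0.38, with 2 of its 3 probes called. Its control gilts were spread more widely (-0.42, -0.19, 1.19 and 1.45) than its hormone horns (-3.17 to -1.94). BAALC, a lipid-anchored protein of neural and blood-forming tissue, differed by -2.58 ± 0.37 and was well above background on 5 of 6 hormone arrays. These 5 genes and APOM, an apolipoprotein named after its values had been seen (-1.24), passed whichever gilt was left out.

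The other large falls did not pass without control gilt 9, 14 or 28. DEFB1, an antimicrobial defensin of epithelium, lay at 5.26, 5.48, 6.11 and 4.29 in control gilts and 1.12, 2.66 and 3.44 in hormone horns, with a difference of -2.80 ± 0.48 (limma adjusted p = 0.0122, up to 0.0549 with a gilt left out) and 1 of 2 probes called. EGF, a ligand of the epidermal growth factor receptor, fell in all 6 hormone horns, to -3.90 to -1.50 from -0.93 to -0.21 (difference -2.04 ± 0.40, adjusted p = 0.0182, up to 0.0719). All 3 probes of EGF were called lower. TNNT1, a troponin of slow muscle, was at -2.05 (2 of 4 probes called), the small GTPase DIRAS3 at -1.82, the secreted Wnt pathway ligand NDP at -1.55, the taste receptor subunit TAS1R3 at -1.43, the creatine-synthesis enzyme GATM at -1.34 and ANGPTL1, a secreted relative of angiopoietins, at -1.31. For TNNT1 and DIRAS3, 1 hormone horn each lay within or next to the control gilts: TNNT1 in gilt 36 (-2.46; control gilts -2.51 to -1.48) and DIRAS3 in gilt 38 (1.89; control gilts 2.07 to 2.75). Calls also failed without gilt 44 or 46 for TNNT1, without gilt 44, 46 or 47 for DIRAS3 and without gilt 41, 44, 46 or 47 for ANGPTL1. The matrix proteoglycan OPTC had an even larger difference (-4.71 ± 1.80), but its hormone horns ran from -7.76 to 2.14 and it was not called (adjusted p = 0.142).

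Genes that make, break down or bind the hormones given are read against the 7.44% of all named genes called higher. In prostaglandin synthesis and metabolism 1 of 12 measured genes was higher and 0 lower, with a median of 0.39. It was PTGR1, which inactivates prostaglandins and leukotrienes, with 0.28, 0.54, 0.64 and 0.49 in control gilts, 1.18, 2.33 and 2.83 in hormone horns and a rise of 1.68 ± 0.28 (limma adjusted p = 0.0112; 0.0508 without control gilt 14). AKR1B1, an aldose reductase that can also make prostaglandin F, was at 2.04 ± 0.59 but was not called (adjusted p = 0.0626), with gilts 40 and 44 (0.35 and 0.88) next to or among the control gilts (-0.33 to 0.59). AKR1B1 passed with gilt as a replicate block (adjusted p = 0.0384), so that 2 genes of this list were called. PTGS2, the inducible cyclooxygenase, was at 0.40 (adjusted p = 0.498). Of prostaglandin receptors and transporters 3 of 11 were measured and none (0) passed (limma): PTGER3, a receptor for PGE2, was at -0.085, PTGFR, the receptor for prostaglandin F, at -0.042, and the transporter SLCO2A1 at 0.29, with unadjusted p of 0.574, 0.902 and 0.0332.

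Of 14 steroid receptors and cofactors 1 was higher and 0 lower (median 0.063). FKBP4, a co-chaperone of steroid receptors, rose by 1.52 ± 0.38 (limma adjusted p = 0.0388, up to 0.109 without control gilt 9, 14 or 28). ESR1 lay at 1.44, 1.65, 1.48 and 1.20 in control gilts and 0.32, 0.69 and 1.83 in hormone horns, 5 of which were below every control gilt while gilt 36 (1.83) was above them all. Its difference of -0.59 ± 0.27 was not called (adjusted p = 0.215), and neither was that of the progesterone receptor PGR (0.32 ± 0.18, adjusted p = 0.318). Of the 10 fits that leave out a gilt, 1 called ESR1 lower, that without the hormone horn of gilt 36. The array of that horn had the lowest 75th percentile of signal in the comparison (597, next 672). Of 13 steroid-converting enzymes 2 were higher and 0 lower (median -0.13), HSD11B1 and HSD17B4, a peroxisomal enzyme that oxidises estradiol and fatty acids (0.62, adjusted p = 0.0428, up to 0.136 without control gilt 9, 14 or 28). With gilt as a replicate block FKBP4 was not called (adjusted p = 0.152), nor was any other gene (0) of its list (limma). The call was also lost without gilt 40, 41, 44 or 46 for FKBP4 and without gilt 40, 41, 44, 46 or 47 for HSD17B4.

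Genes known for their response to the conceptus or to estrogen in pig endometrium were mixed. Of 26 measured 2 were higher, 1 lower, against the 7.44% and 1.16% of all named genes, and the median was 0.26. Besides LPAR3, MUC4, a membrane-bound mucin, rose by 2.27 ± 0.51 (limma adjusted p = 0.0282), and EGF was the member that fell. The fit with gilt as a replicate block called 4 higher. Without control gilts 9, 14 and 28 in turn the list held 1, 1 and 1 called members. SPP1, the adhesive glycoprotein osteopontin, ranged from -0.33 to 6.48 in hormone horns against -0.51 to 0.90 in control gilts. Gilt 40 (6.48) and gilt 47 (5.04) were highest and gilt 36 (-0.33) was level with the control gilts, and the difference of 2.82 ± 1.13 was not called (adjusted p = 0.162). Genes of the early response and of cAMP signalling held 2 rises, CEBPB and the kinase SGK1 (1.72 ± 0.34), and 1 fall, RGS4, among 17 measured (median 0.21). Neither MUC4 nor SGK1 passed without control gilt 9, 14 or 28 (adjusted p up to 0.0978 and 0.0748).

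Genes of cell division were higher as far as they were called. Of 12 measured members 5 were higher and 0 lower, against the 7.44% and 1.16% of all genes, and the list's median of 0.99 was the highest of the 41 pathway lists. CDK1, the cyclin-dependent kinase of mitosis, had -3.10, -2.05, -2.06 and -1.69 in control gilts. Its hormone horns lay between -0.11 and 0.37 in 5 gilts and at 2.17 in gilt 47, all above the control gilts. The rise was 2.69 ± 0.43 (6.47-fold, limma adjusted p = 0.0108) and passed whichever gilt was left out. PCLAF, a partner of the replication clamp PCNA outside the list, had the same order of gilts at its ends (-2.96, -1.77, -2.31 and -1.45 in control gilts; -0.022, 0.33 and 2.36 in hormone horns) and rose by 2.75 ± 0.45, whichever gilt was left out.

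The other called members were TOP2A, the topoisomerase that untangles chromosomes (2.64 ± 0.45), the mitotic cyclin CCNB2 (2.46 ± 0.42), CDC20, an activator of the anaphase-promoting complex (2.19 ± 0.45), and BIRC5, or survivin (1.27 ± 0.30). In each of them gilt 47 was highest and the other 5 hormone horns were closer together. CCNB1 was at 1.34 (limma adjusted p = 0.0563) and the kinase AURKA at 0.72 (adjusted p = 0.0792), while the phosphatase CDC25C was at -0.88 (adjusted p = 0.181). CCNB1 and AURKA passed with gilt as a replicate block (adjusted p = 0.0248 and 0.0485). Without the hormone horn of gilt 47 the list had 6 called members and a median of 0.80. With control gilts 9, 14 and 28 left out in turn 2, 1 and 2 members were called, with medians of 0.94, 1.03 and 0.99. Further calls were lost without gilt 44 or 46 for BIRC5. CCNB2 missed the threshold without control gilt 14 alone. The list's median relative to the control mean was 0.53 (gilt 41) to 1.96 (gilt 47) in hormone horns and -0.27 to 0.20 in the control gilts.

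In cell cycle control 3 of 13 genes were higher and 0 lower (median 0.33), against the 7.44% and 1.16% of all named genes. BTG3, which restrains proliferation, rose by 1.15 ± 0.17 (limma adjusted p = 0.00905) and passed whichever gilt was left out. CDKN2B, an inhibitor of cyclin D kinases, rose by 0.81 and the cyclin CCND3 by 0.63, and neither passed without control gilt 9, 14 or 28 (adjusted p up to 0.114 and 0.128). In addition, the threshold was missed without gilt 40, 44 or 46 for CDKN2B and without gilt 44, 46 or 47 for CCND3. CDKN2B was not called with gilt as a replicate block (adjusted p = 0.19). The called members of this list thus include genes that slow the cycle as well as a cyclin.

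**Figure D4:**
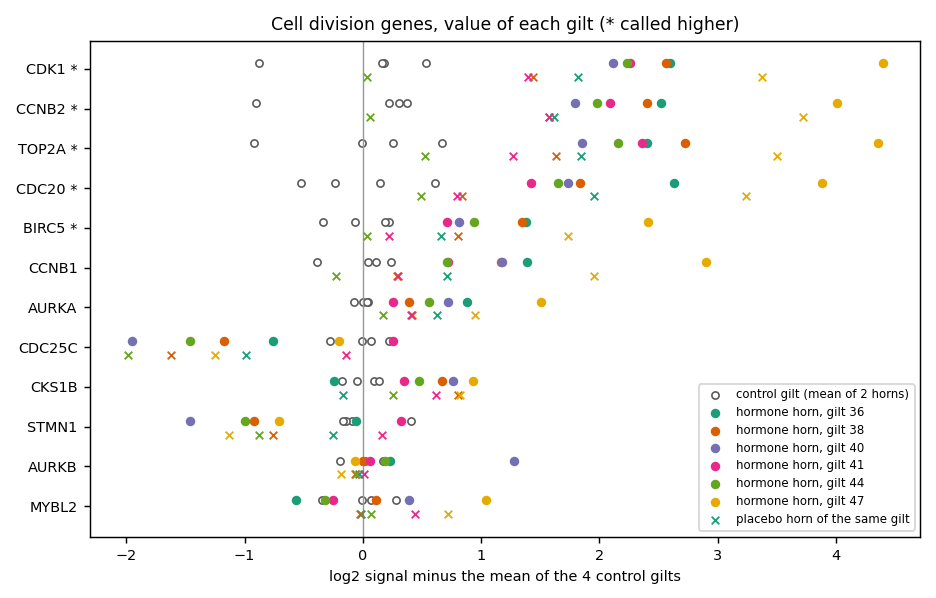
Log2 signal minus the mean of the 4 control gilts (x axis) for the 12 measured cell division genes, ordered by p. Filled circles are hormone horns, crosses the placebo horns of the same gilts in the same colour, open circles control gilts, and an asterisk marks a call. In all 5 called genes every hormone horn lies above every control gilt and gilt 47 is highest. Of all 259 called genes 234 were without overlap.

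Epithelial genes rose in part. Of 11 markers of luminal and glandular epithelium 4 were higher and 0 lower (median 0.47), against the 7.44% and 1.16% of all named genes. Of 21 genes of junctions and keratins 5 were higher and 0 lower (median 0.072, below that of all named genes). Both lists hold CDH1, so their counts overlap, and the called markers include MUC4 (2.27). CDH1, the E-cadherin of cell contacts, lay at 1.68, 1.77, 1.87 and 2.12 in control gilts and at 2.63, 2.74 and 3.16 in hormone horns and rose by 0.95 ± 0.15 (limma adjusted p = 0.00983), with 1 of 2 probes called. EPCAM rose by 0.69 ± 0.13, with all 16 of its probes called, and the tight junction protein CLDN4 by 1.35 ± 0.27. UPK1B, a tetraspanin of urothelium, rose by 2.42 ± 0.56 and F11R, a junctional adhesion molecule, by 0.62. The other 7 markers were not called. In the fits without control gilts 9, 14 and 28 1, 0 and 1 of the markers and 1, 0 and 1 of the junction genes were called. Calls also failed without gilt 40, 44 or 46 for UPK1B and without gilt 38, 40, 41, 44, 46 or 47 for F11R. Neither CDH1 nor F11R passed with gilt as a replicate block (limma adjusted p = 0.106 and 0.0546), which left 3 junction genes called.

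Uterine secretory products held 4 higher and 0 lower genes among 23 (median 0.47), against the 7.44% and 1.16% of all named genes. Of the 23 differences 22 were above 0. RBP4, the plasma carrier of retinol, was already bright in control gilts (6.94, 7.12, 7.57 and 7.43) and reached 7.87, 8.40 and 8.77 in hormone horns, a rise of 1.13 ± 0.19 (limma adjusted p = 0.0122). TIMP2, an inhibitor of matrix metalloproteases, rose by 1.15 ± 0.23, the protease inhibitor SLPI by 2.43 ± 0.59 and LYZ, which encodes lysozyme, by 2.54 ± 0.60. LYZ is also a macrophage marker and was highest in gilt 47 (5.31, next 2.88). UABP-2, a uteroferrin-associated serpin, was at 2.40 ± 0.66 (adjusted p = 0.0553), ACP5 at 0.42 ± 0.13 (adjusted p = 0.0851) and the siderophore-binding LCN2 at 2.39 ± 0.79 (adjusted p = 0.0963), none of them called. Control gilt 46 stood above the other control gilts for SLPI and UABP-2 (7.21 and 6.05). When control gilts 9, 14 and 28 were left out in turn, 0, 0 and 1 members were called. The call was also lost without gilt 41, 44 or 46 for LYZ and without gilt 40, 41, 44 or 47 for SLPI. Under the replicate block by gilt RBP4 and TIMP2 were not called (adjusted p = 0.0855 and 0.0641), which left 2 secretory products.

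Vascular genes were called higher at a share above the 7.44% of all named genes, in lists that share FLT1 and NOS3. Without control gilt 9, 14 or 28 each of the 2 lists, endothelial markers and vascular genes, held 1 called member. Of 11 endothelial markers 6 were higher and 0 lower, all 11 differences were above 0, and the median was 0.78. FLT1, a receptor of vascular endothelial growth factor, had -3.57, -3.31, -3.26 and -2.90 in control gilts and -2.50, -1.92 and -1.51 in hormone horns and rose by 1.30 ± 0.20 (limma adjusted p = 0.00951), whichever gilt was left out. SELP, the selectin that captures leukocytes on vessel walls, rose by 1.11 ± 0.22, NOS3, the endothelial nitric oxide synthase, by 0.97 ± 0.21, PECAM1 by 0.83, the clotting factor carrier VWF by 0.78 and the TGF-beta co-receptor ENG by 0.64. Apart from FLT1 no endothelial marker passed without control gilt 9, 14 or 28 (adjusted p up to 0.0712 for SELP and 0.141 for PECAM1). Among 18 vascular growth and vasoactive genes 4 were higher and 0 lower (median 0.43): FLT1, NOS3, ADM, which encodes the vasodilator adrenomedullin, and RAMP1, part of the receptor for calcitonin gene-related peptide. ADM lay at 0.72, 1.52, 1.52 and 2.50 in control gilts and 2.70, 4.10 and 6.02 in hormone horns and rose by 2.57 ± 0.54, and RAMP1 rose by 1.26 ± 0.32. Of 18 integrins and adhesion genes 3 were higher (CDH1, EPCAM and SELP) and 0 lower, and 5 were higher with gilt as a replicate block, under which CDH1 did not pass. Neither ADM nor RAMP1 passed without control gilt 9, 14 or 28 (limma adjusted p up to 0.0895 and 0.132). Further calls were lost without gilt 44 for NOS3 and ENG, without gilt 40, 41, 44 or 47 for PECAM1 and without gilt 40, 41, 44, 46 or 47 for RAMP1.

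In the extracellular matrix 4 of 22 genes were higher and 1 lower (median 0.55), against the 7.44% and 1.16% of all named genes. COL8A1, a collagen of vessels and basement membranes, rose by 1.78 ± 0.38, the cross-linking enzyme LOX by 1.02 ± 0.21, the large proteoglycan VCAN by 0.99 and FBN1, of microfibrils, by 0.78. SPARCL1, an anti-adhesive matrix protein, had control values of 3.79, 3.66, 3.65 and 4.28 and hormone values of 2.84, 3.07 and 3.48 and was lower by all 7 of its probes (-0.75 ± 0.17, limma adjusted p = 0.0276). COL1A2, a chain of the main fibrillar collagen, was at 0.74 (adjusted p = 0.0529). Stromal fibroblast markers held 2 rises among 8, ENG and the surface protein THY1 (2.40 ± 0.61), and of 18 proteases and inhibitors of the matrix TIMP2 was the one called. Contractile genes held 3 rises and 1 fall among 33: ACTA2, the actin of smooth muscle, rose by 1.01 ± 0.24 with all 4 probes called, TPM4 by 1.07 and ACTC1 by 0.91 (1 of 3 probes), and TNNT1 fell. In control gilts ACTA2 was lower in gilts 14 and 28 (4.25 and 4.19) than in gilts 9 and 46 (5.02 and 5.04), and its lowest hormone horn, gilt 40, was at 5.07. Without control gilts 9, 14 and 28 in turn 0, 0 and 0 matrix genes and 0, 0 and 0 contractile genes were called. In addition, the threshold was missed without gilt 44 or 46 for VCAN and SPARCL1, without gilt 41, 44 or 47 for ACTA2, without gilt 38, 44, 46 or 47 for THY1, without gilt 41, 44, 46 or 47 for ACTC1 and without gilt 36, 38, 44, 46 or 47 for FBN1. With gilt as a replicate block COL8A1, LOX and SPARCL1 were not called (limma adjusted p = 0.0623, 0.0656 and 0.0755), nor were ACTA2, ACTC1 and TIMP2 (adjusted p = 0.3, 0.0737 and 0.0641), while COL1A2 passed (adjusted p = 0.0372). In that fit 1 contractile gene was higher and 1 lower, and 3 stromal markers and 3 proteases and inhibitors of the matrix were higher.

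Growth factors and their receptors moved in both directions. Their counts are read against the 7.44% higher and 1.16% lower of all named genes. Of 10 genes of the EGF and FGF families and related receptors 2 were higher and 1 lower (median 0.36). MET, the receptor of hepatocyte growth factor, rose by 1.18 ± 0.30 and KIT, the receptor of stem cell factor, by 1.03 ± 0.26, whereas EGF fell and FGFR2 was at -0.80 ± 0.22 (limma adjusted p = 0.0553). KIT is also a mast cell marker, and the other 4 measured mast cell and eosinophil markers were not called. In the TGF-beta superfamily 1 of 24 genes was higher, TGFB3 (1.44 ± 0.35), and 1 lower, GDF15. TGFB3 was level with the control gilts in gilt 40 (0.037) and at 1.17 to 1.72 in the other hormone horns. Of 13 genes of the insulin-like growth factor system none (0) passed (limma; 0 to 1 in each direction with a gilt left out). IGF1 was at -0.90 (adjusted p = 0.242) and IGFBP2 at 1.32 (adjusted p = 0.0924), highest in gilt 47. MITF, a transcription factor of pigment and mast cells, was the one call among 17 Wnt, hedgehog, Notch and homeobox genes, at -0.998 ± 0.19, and had 2 of its 3 probes called. MET, KIT, TGFB3 and MITF did not pass without control gilt 9, 14 or 28 (adjusted p up to 0.136, 0.127, 0.117 and 0.0767). Calls also failed without gilt 41, 44 or 47 for TGFB3, without gilt 40, 41, 44 or 47 for KIT and without gilt 38, 40, 44, 46 or 47 for MET. Under the replicate block by gilt MET was not called (adjusted p = 0.228) and FGFR2 was (adjusted p = 0.0301), and 3 genes of the TGF-beta superfamily and 2 of the insulin-like growth factor system were higher.

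Some genes of energy metabolism were called higher, read against the 7.44% of all named genes. Of 16 genes of low oxygen and glycolysis 3 were higher and 0 lower (median 0.41). PDK1, which holds back pyruvate oxidation, lay within a narrow range in control gilts (-1.99, -1.97, -1.99 and -1.90) and at -1.31, -1.17 and -0.80 in hormone horns, a rise of 0.85 ± 0.14 (limma adjusted p = 0.0111). PGK1 rose by 0.90 ± 0.19, with all 6 probes called, and LDHA by 1.09 ± 0.27. Of 40 genes of oxidative phosphorylation and the citrate cycle 6 were higher and 0 lower (median 0.26). They were PDHB, of the pyruvate dehydrogenase complex (1.06), PCK2 (1.36), DLST (0.83), cytochrome c, CYCS (0.82, 11 of 12 probes called), the channel VDAC1 (0.71) and the phosphate carrier SLC25A3 (0.70, 10 of 10 probes). With control gilts 9, 14 and 28 left out in turn 1, 0 and 0 members of the first list were called, and none (0) of the second in any of these 3 fits (limma). The call was also lost without gilt 44 for SLC25A3 and VDAC1, without gilt 46 for CYCS, without gilt 40 or 46 for PCK2, without gilt 38, 44, 46 or 47 for DLST and without gilt 40, 41, 44 or 47 for LDHA.

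Among 44 redox and detoxification genes 5 were higher and 0 lower (median 0.26), against the 7.44% and 1.16% of all named genes. SULT2A1, a sulfotransferase of steroids and bile acids, was bright and rose from 4.83, 5.92, 4.89 and 4.52 in control gilts to 6.36, 6.85 and 8.14, or by 2.08 ± 0.40 (limma adjusted p = 0.017). GLRX rose by 1.90, SOD3, the extracellular superoxide dismutase, by 1.05, the glutathione peroxidase GPX2 by 1.04 and PRDX6 by 0.95 with all 6 probes called. Of 50 genes of lipid and cholesterol metabolism, the fatty acid desaturase FADS2 (1.18 ± 0.23) and the carrier FABP3 (1.49 ± 0.38) were higher and PNPLA3 was lower (median 0.22). Of 19 sugar, amino acid and peptide transporters and exchangers, SLC15A1 and GGT1 were the ones called, both higher (median 0.20). Of 34 genes of ion and water transport 4 were higher and 0 lower (median 0.23): STEAP1, the water channel AQP1 (1.40 ± 0.28), the pump regulator FXYD3 (1.32 ± 0.26) and the bicarbonate transporter SLC4A4 (1.26 ± 0.33). AQP1 lay at -0.95 in gilt 40 and at -2.23 to -1.93 in the other hormone horns. In the fits without control gilts 9, 14 and 28 0, 1 and 1 redox, 1, 1 and 1 lipid, 1, 1 and 1 transporter and 0, 0 and 0 ion and water genes were called. Further calls were lost without gilt 44 or 46 for GPX2, without gilt 38, 40, 44 or 46 for SOD3 and PRDX6, without gilt 40, 41, 44 or 46 for GLRX, without gilt 38, 40, 44, 46 or 47 for FABP3 and without gilt 38, 40, 41, 44, 46 or 47 for SLC4A4. With gilt as a replicate block SOD3, FABP3 and FXYD3 were not called (limma adjusted p = 0.169, 0.0853 and 0.134), and 4 lipid genes were higher.

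Some genes of protein synthesis and folding were called higher, while none (0) of the ribosome was (limma). These counts are read against the 7.44% of all named genes called higher. Of 14 genes of folding in the endoplasmic reticulum 4 were higher and 0 lower (median 0.38). SEC61A1, of the channel for protein import, rose by 0.84 ± 0.15, the co-chaperones DNAJC3 by 1.23 ± 0.24 and DNAJB11 by 0.89, and the lectin chaperone CANX by 0.61. Cytosolic chaperones held 3 rises among 15, FKBP4, HSPA8 (0.78 ± 0.14) and PPIA (0.72, 1 of 2 probes). Translation factors held 2 among 12, the helicase EIF4A1 (0.94) and EIF4E2 (0.72). Proteasome and ubiquitin genes held 3 among 28, not far above the share of all named genes: UBE2L3 (0.55), UCHL3 (0.88) and PSME3 (0.72). Of 35 ribosomal protein genes none (0) passed (limma), and their differences ran from -0.22 to 0.54 with a median of 0.052, below the median of all named genes. At a share of 7.44% few calls would fall among 35 genes. In addition, the threshold was missed without gilt 44 or 46 for PPIA, without gilt 40, 41, 44 or 47 for DNAJB11, without gilt 40, 44, 46 or 47 for EIF4E2 and PSME3 and without gilt 38, 40, 41, 44, 46 or 47 for CANX. CYCS was the one call among 19 apoptosis genes. No member (0) of the folding, chaperone, translation and proteasome lists was called without control gilt 9, 14 or 28 (limma). Under the replicate block by gilt 4 translation factors, 5 proteasome and 3 apoptosis genes were higher, and FKBP4 was not called.

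Genes of innate immunity were called in both directions, read against the 7.44% higher and 1.16% lower of all named genes. Of 26 antimicrobial and mucosal genes 4 were higher (DMBT1, MUC4, LYZ and SLPI) and 2 lower (REG3G and DEFB1), with a median of 0.25. Of 16 acute phase genes SAA3 and CHI3L1 were called, and the median of 0.13 was below the 0.17 of all named genes. SERPINA3-2, a protease inhibitor, was at 3.21 ± 0.99 (limma adjusted p = 0.0779), with 1.64 in gilt 47 and -4.48 to -2.71 in the other hormone horns. Complement held 2 rises among 23, near the share of all named genes, with a median of 0.63. They were CFB of the alternative pathway (2.49 ± 0.64) and C4A (0.83 ± 0.20). In the interleukin 1 family 0 of 7 genes were higher and 2 lower: the cytokine IL1A (-1.37 ± 0.30) and IL18R1, a receptor chain for interleukin 18 (-1.28 ± 0.23). The other 5 of the 7 differences were above 0, and the list's median was 0.56. IL1B, among these 5, was at 1.89 ± 1.30 and was not called (limma adjusted p = 0.424). It was high in gilt 47 and gilt 41 alone (3.14 and 0.41, against -4.10 to -2.79 in the other hormone horns). When control gilts 9, 14 and 28 were left out in turn, 2, 2 and 2 antimicrobial, 0, 0 and 0 acute phase, 0, 0 and 0 complement and 1, 0 and 0 interleukin 1 family genes were called. Calls also failed without gilt 44 or 46 for IL1A, without gilt 44, 46 or 47 for C4A and without gilt 40, 41, 44 or 46 for CFB. With gilt as a replicate block none (0) of the interleukin 1 family passed (limma adjusted p = 0.0857 for IL1A and 0.104 for IL18R1), and C4A did not (adjusted p = 0.0856).

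Genes of immune signalling and markers of leukocytes follow, read against the 7.44% of all named genes called higher. Toll-like receptor and NF-kB signalling held 3 rises among 28 (median 0.50), the adaptor MYD88 (2.14-fold) and the NF-kB inhibitors TNIP1 (0.92, 1 of 2 probes) and NFKBIA (1.13), none of which passed without control gilt 9, 14 or 28. Of 63 cytokines, chemokines and receptors IL13RA1, a receptor chain for interleukin 13, was the one called (0.97 ± 0.22), and not without control gilt 9, 14 or 28. The call was also lost without gilt 44 for IL13RA1 and without gilt 40, 41, 44 or 46 for NFKBIA. In that list 55 of the 63 differences were above 0 (median 0.60). The median of that list in the hormone horn of gilt 47 was 1.78 above the control mean, against 0.11 to 0.54 in the other hormone horns. The placebo horn of gilt 47 was at 2.22. Of 36 interferon signalling and induced genes none (0) passed (limma; 0 to 2 with a gilt left out), with a median of 0.021. Of 9 MHC class II genes none (0) passed either (limma), and all 9 differences were above 0: CD74, the invariant chain, was at 0.90 ± 0.48 (adjusted p = 0.294), its signal being 4.30 in gilt 47 and 1.18 to 2.57 in the remaining hormone horns. Probes of the SLA genes of this region can bind near-identical copies. CANX was the one call among 18 genes of MHC class I and peptide loading. T and natural killer cell markers were not called (0 of 17, limma), though 16 of the 17 differences were above 0 (median 0.67). The activation antigen CD69 was at 1.52 ± 0.55 (limma adjusted p = 0.119). GZMB, a granule protease, was the member below 0, at -0.94 ± 0.26 (adjusted p = 0.0588). Of 17 macrophage and dendritic cell markers LYZ was called, and CD14 was at 1.42 ± 0.39 (limma adjusted p = 0.0549). All 17 of these marker differences were above 0 (median 0.71). The cathepsins CTSK, CTSH and CTSD were at 0.60, 1.33 and 0.54, and none (0) of 9 genes of that list passed (limma). These 3 cathepsins, CD14 and, as a fall, GZMB passed with gilt as a replicate block (limma adjusted p = 0.0457, 0.0373, 0.0402, 0.0431 and 0.0314). In that fit 6 Toll-like receptor and NF-kB genes, 2 interferon genes and 3 macrophage markers were higher.

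**Figure D5:**
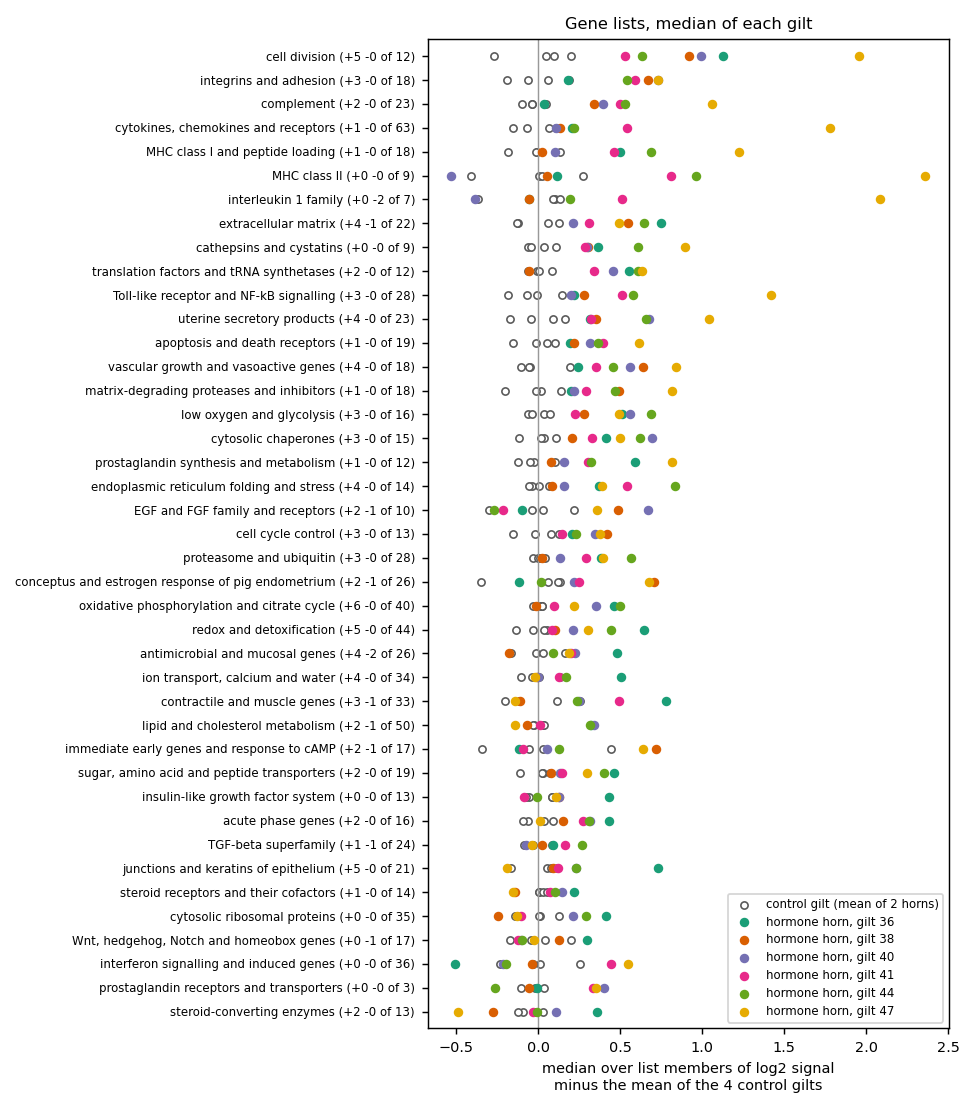
Median over the members of each gene list of the log2 signal minus the mean of the 4 control gilts (x axis), for 6 hormone horns (colours) and 4 control gilts (open circles). Labels give the members called higher and lower of those measured, and lists are ordered by their median difference. Cell division is at the top, and gilt 47 lies farthest right for cytokines, MHC class II and the interleukin 1 family.

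Hormone horns were also set against the placebo horn of the same gilt, in the 5 gilts with both, which tests the horn rather than the animal. The horn mark is confounded with treatment there. No probe (0) passed (limma with gilt as a block; 2593 at an unadjusted p under 0.05), so none of the genes above is shown to differ between the horns of a treated gilt. The largest differences among them were those of S100A9 (2.20 ± 0.44) and S100A8 (2.01 ± 0.52), followed by LPAR3 (1.73 ± 0.29), which was higher in the hormone horn in 5 of 5 gilts (limma adjusted p = 0.222, 0.383 and 0.176). DMBT1 was at 1.57 ± 0.20, CDK1 at 1.19 ± 0.20, BAALC at -1.34 ± 0.25 and RGS4 at -1.07 ± 0.14 (adjusted p = 0.168, 0.184, 0.205 and 0.168). Other genes that passed against control gilts were near 0 between horns: CEBPB at -0.14 ± 0.17, BTG3 at 0.026 ± 0.16, CDH1 at -0.037 ± 0.14 and LYZ at -0.025 ± 0.22. The placebo horns themselves lay at -2.15 to -0.83 for CEBPB and 1.93 to 3.45 for BTG3, beside -2.28 to -1.29 and 2.25 to 3.16 in hormone horns. For LPAR3 they lay at -4.55 to -1.58, beside -2.60 to -0.64 in hormone horns and -4.91 to -3.76 in control gilts. For DMBT1, TMEM171 and SAA3 they lay at -1.69 to 0.51, -1.16 to -0.070 and 0.83 to 8.78. The highest control gilts were at -2.79, -2.49 and 0.28, below all placebo horns. For RGS4 the placebo horns lay at -1.85 to -0.38, beside -2.78 to -1.82 in hormone horns and -0.55 to 0.55 in control gilts.

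Arrays were scanned on 3 days, each with gilts of both groups. They lay on 9 slides. Slide 1 held control gilt 9 and treated gilt 36, and each other slide held a single gilt. Slide can therefore hardly be told apart from gilt, and only slide 1 held both groups. With scan day as a term 1142 probes were higher and 827 lower (limma), and 4, 2 and 0 probes passed in fits of single days with 1 to 2 control gilts (3597, 6366 and 1470 at an unadjusted p under 0.05).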

How the data were processed

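RNA of 19 endometrium samples, the 14 of the comparison and 5 placebo horns, was hybridised to one-colour Agilent arrays with Cy3. The deposited scanner files hold spot intensity from Agilent Feature Extraction, version 10.7.3.1 per the file headers and 9.1 per the submitters' processing notes. The intensity used had been background-subtracted and detrended within each array by that software, per the file headers, and no source used here names the genome build. From it, log2 values minus the log2 of each array's 75th percentile were computed, outlier spots were left out and spots of a probe averaged. Probes well above background on at least 4 of 19 arrays were kept. The authors' deposited table of log2 values served as an alternative.

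Hormone horns (6) and control gilts (4, horns averaged) were compared with limma 3.58.1 (R 4.3.3) in 1 model over 39095 probes with an intensity trend, two-sided, with Benjamini-Hochberg adjustment and a threshold of 0.05. The horns of treated gilts were compared with gilt as a block. The script was tested on simulated data. Horns of 1 gilt deviated together from their group means (correlation 0.403 to 0.628 in control gilts, at most 0.0184 between gilts), so the numbers pair the arrays. Subtracting the mean of so few gilts itself lowers the correlations between gilts. Symbols were taken from RefSeq accessions, which named 6768 probes and 3123 genes; 32645 tested probes have none. The brightest probe on average stands for a gene. Named genes were the 15 largest rises and 15 largest falls among called genes, up to 4 members of each gene list with the smallest p, and further members where a count is explained. The members and lists were chosen with earlier results of these data known. The number of arrays limits the precision. Results for some genes are not reported here.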

Additional observations from a re-analysis of the deposited data

Results flagged for a closer look

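In the 340 groups of samples examined (170 named genes, hormone horns and control gilts), 26 held a sample that lay far from the others by Dixon's ratio of its gap to the whole range, where chance alone gives about 1 in 20. Values are log2 signals, each beside the range of the other gilts of its group. The hormone horn of gilt 40 was far above the others for AQP1 (-0.95 against -2.23 to -1.93). The hormone horn of gilt 47 was far above the others for CCNB1 (1.60 against -0.59 to 0.085), CCNB2 (-1.48 against -3.70 to -2.97), CCNF (0.31 against -1.71 to -1.06), CDK1 (2.17 against -0.11 to 0.37), IGFBP2 (5.16 against 2.46 to 3.44), LYZ (5.31 against 1.68 to 2.88), MTFR2 (-1.69 against -4.23 to -3.71), PCLAF (2.36 against -0.022 to 0.66), SERPINA3-2 (1.64 against -4.48 to -2.71), SPAG5 (0.36 against -2.01 to -1.18), TNIP1 (0.086 against -1.02 to -0.68) and TOP2A (0.55 against -1.95 to -1.08). Control gilt 9 was far below the others for CCNB2 (-6.39 against -5.26 to -5.12), LPAR3 (-4.91 against -3.87 to -3.76) and LYZ (-0.51 against 0.42 to 0.52). The hormone horn of gilt 44 was far above the others for CDKN2B (-4.34 against -4.92 to -4.75) and RPN2 (5.93 against 5.10 to 5.39). Control gilt 46 was far above the others for ENG (2.00 against 1.80 to 1.82), LRRC59 (-0.82 against -1.19 to -1.16) and PGK1 (3.46 against 3.26 to 3.27). The hormone horn of gilt 36 was far above the others for HSPA8 (7.79 against 7.22 to 7.40) and PGR (1.52 against 0.71 to 0.86). Control gilt 46 was far below the others for MITF (1.57 against 2.08 to 2.14). Control gilt 28 was far above the others for STAT5B (0.072 against -0.19 to -0.16). The hormone horn of gilt 40 was far below the others for TGFB3 (0.037 against 1.17 to 1.72).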

How the results depend on the processing

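The counts of 1440 probes higher and 1053 lower stayed within 1.5 times under quantile normalization, normexp background correction, the authors' deposited log2 table, both other filters on dim probes, control horns marked L or P alone, no intensity trend, scan day as a term and without gilts 36 and 47, an alternative chosen after seeing the data. Quantile normalization gave 1269 higher and 1250 lower, so that 50.4% of calls were higher in place of 57.8%, normexp 978 and 914 (51.7%), and the authors' deposited values 1233 and 1146 (51.8%). Counts moved with all 19 arrays and gilt as a replicate block (2627 and 1926), array weights (3016 and 2351), slide as a random block (4959 and 4066), within scan day 1 (4 and 0), day 2 (2 and 0) and day 3 (0 and 0; limma, 1470 at an unadjusted p under 0.05), and with the class difference of probes as a term, also chosen after seeing the data (0 and 0; limma, 1534). Leaving out 1 gilt gave 114 to 2017 higher and 91 to 1751 lower. The cause was not tested. Except slide 1, each slide held arrays of 1 gilt, so that a block by slide is nearly a block by gilt.

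The arrays of a gilt are paired: the 14 arrays with gilt as a replicate block gave 1784 higher and 1410 lower. Between the horns of treated gilts 0 probes passed with the block and 0 without it (limma; 2593 and 589 at an unadjusted p under 0.05).

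Signs turned only for genes that were not called. PTGFR (-0.042) was at 0.091 with control horns marked P, 0.041 with scan day as a term, 0.45 within day 2, 0.53 within day 3, 0.54 with the class term and -0.19 to 0.19 with 1 gilt left out. PTGER3 was at 0.043 within day 2 and 0.28 with the class term. With that term CD74 was at -0.74, CTSH at -0.42, ESR1 at 0.0093, IL1B at -0.82, PTGS2 at -0.039, SLA-DRA at -0.65 and TREM1 at -0.46.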

Other observations

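Of the 259 called genes 159 stood in none of the gene lists, and the genes named here were picked from them after their values had been seen. They included genes of mitosis and DNA repair. PBK, a mitotic kinase, rose by 2.31 ± 0.31 log2 units (limma adjusted p = 0.00789) by all 4 of its probes and passed whichever gilt was left out. The spindle protein SPAG5 rose by 2.17 ± 0.42, the cyclin CCNF by 1.66 ± 0.34, the nuclear import factor KPNA2 by 1.61 ± 0.29 and RAD54L, which acts in recombination, by 1.69. None of these 4 was called without control gilt 9, 14 or 28.

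Called genes outside the lists also included some that act in the secretory pathway. RPN1, RPN2 and DDOST, subunits of the enzyme that attaches sugar chains to new proteins, rose by 0.77, 0.72 and 0.58, the vesicle coat GTPases ARF1, ARF4 and SAR1A by 0.91, 0.78 and 0.71, and TMED3, a cargo receptor, by 1.30. LRRC59 and CKAP4, membrane proteins of the endoplasmic reticulum, rose by 1.64 ± 0.28 and 1.21 ± 0.25 (limma adjusted p = 0.0118 and 0.0215). The transcription factors STAT5A and STAT5B rose by 1.22 and 0.76, and the lysosomal precursor PSAP by 2.01 ± 0.44. Among the falls, the efflux transporter ABCG2 was at -1.19 ± 0.25 and the zinc transporter SLC30A2 at -1.27 ± 0.28 (adjusted p = 0.0246 and 0.0271). All genes of this paragraph lost the call without control gilt 28, and all except SLC30A2 without control gilt 14 and all except ABCG2 without control gilt 9. The call was also lost without gilt 44 for SLC30A2, without gilt 40 or 44 for TMED3, without gilt 40, 41 or 44 for ARF1, without gilt 41, 44, 46 or 47 for SAR1A, without gilt 38, 40, 44, 46 or 47 for STAT5B and without gilt 40, 41, 44, 46 or 47 for RPN1. With gilt as a replicate block on the 14 arrays ARF1 was not called (limma adjusted p = 0.0567).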
